A study of Mus musculus with 9 samples.

Results

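Fibroblast growth factor (FGF) ligands and receptors were followed in SIX2 nephron progenitors after loss of mitochondrial complex III. The 10 genes were taken by name from the 26858 genes of the count table: the ligands *Fgf1*, *Fgf7*, *Fgf9*, *Fgf10*, *Fgf20* and *Fgf21*, the receptor kinases *Fgfr1*, *Fgfr2* and *Fgfr3*, and the receptor *Fgfrl1*. QPC, encoded by *Uqcrq*, is a subunit of complex III, and cells were sorted by eGFP from mouse kidneys at E18.5. The 4 control libraries came from the heterozygous line (Six2-Qpc+/-) and the 5 mutant libraries from the knockout line (Six2-Qpc-/-), with Cre fused to eGFP and driven by *Six2* regulatory sequence on a transgene in both, so the controls had also lost 1 copy of *Qpc*. Whether a library held cells of 1 embryo or of several is not given in the sources used here. The p-values set the difference between genotypes against the spread between these libraries, which need not be the spread between embryos.

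FGFs are secreted proteins that bind receptor tyrosine kinases together with heparan sulphate on the cell surface and, through the ERK pathway, switch on genes such as *Etv5*, *Dusp6* and *Spry1*. In the cap mesenchyme, FGF9 and FGF20 keep nephron progenitors alive and undifferentiated through FGFR1 and FGFR2, while FGF10 produced by the mesenchyme acts on the ureteric bud. FGF21 is different: it is a hormone, it binds heparan sulphate weakly, and it needs the coreceptor beta-klotho, encoded by *Klb*, to activate FGF receptors. In liver and muscle its gene is a known target of ATF4, the transcription factor of the integrated stress response.

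Of the 10 genes, *Fgf21* changed and the other 9 did not pass the threshold. *Fgf21* was almost absent from control cells and rose about 14.9-fold in mutant cells. *Fgf10*, *Fgf20* and *Fgf1* were the abundant ligands and *Fgfr1* the most abundant receptor in both genotypes. An adjusted p-value under 0.05 (edgeR quasi-likelihood test, Benjamini-Hochberg adjustment over 14990 genes) was thus found for 1 of 10 genes, against 14.8% of all genes tested, and that gene was higher in mutant cells, as were 7.82% of all genes tested, while 7.02% were lower. The range of the mutant libraries lay apart from that of the controls for 1 of the 10 genes and for 15.2% of all genes tested. The members' median log2 fold change was 0.0028, and that of all genes tested was −0.0085.

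Library totals lay between 21040536 and 23986458 counts. The targeted gene *Uqcrq* (QPC) had 76.8 to 107 counts per 1000000 of normalized library size (CPM) in control and 16.5 to 28.2 CPM in mutant libraries. Markers of nephron progenitors were abundant, with a summed level of 2057 to 2513 CPM in control and 2049 to 2485 CPM in mutant libraries. Of these 8 genes, 0 passed the threshold in edgeR, 2 had an unadjusted p under 0.05, and limma-voom called 1 and DESeq2 0. For this and the other marker lists, the shares over all genes were 19.0% called by DESeq2 and 32.5% by limma-voom. The share of all genes with an unadjusted p under 0.05 is not given here. *Six2* itself stood at 571 ± 53.4 CPM in the 4 controls and at 704 ± 102 CPM in the 5 mutants (mean ± SD). Of 6 markers of committed progenitors and renal vesicles, 2 passed the threshold in edgeR, both lower in mutant cells, as were 7.02% of all genes tested. Unadjusted p was under 0.05 for 5 of the 6, all lower, and DESeq2 called 3 and limma-voom 5. The 6 markers summed to 308 to 555 CPM in control and 222 to 339 CPM in mutant libraries. Among 10 stromal markers, 8 had an unadjusted p under 0.05, and DESeq2 called 8 and limma-voom 10. *Pdgfrb*, also among the 10, was fitted lower in edgeR, at −0.51 on the log2 scale. Its means were 10.7 CPM in control and 7.50 CPM in mutant libraries. The threshold was passed in edgeR by 6, all higher in mutant cells, as were 7.82% of all genes tested. The 10 markers summed to 189 to 324 CPM in control and 403 to 942 CPM in mutant libraries, highest in mutant replicate 75. Of the 6, *Foxd1* had a log2 fold change of 0.58 and *Pdgfra* of 3.66. Of 5 macrophage markers found in the table, 2 passed the threshold in edgeR, both higher in mutant cells, as were 7.82% of all genes tested. All 5 were fitted higher with an unadjusted p under 0.05, and DESeq2 called 4 and limma-voom 5. They summed to 2.39 to 9.83 CPM in control and 9.72 to 112 CPM in mutant libraries. The ureteric bud receptor *Ret* and the bud markers *Wnt9b* and *Gata3* had too few reads to be tested. The 6 bud markers summed to 44.9 to 62.9 CPM in control and 27.3 to 49.4 CPM in mutant libraries. Most of this sum was *Hoxb7*, with means of 40.5 CPM in control and 29.3 CPM in mutant libraries. *Wnt11* followed at 12.9 and 7.17 CPM. In edgeR 0 of the 3 tested passed, 3 had an unadjusted p under 0.05, and DESeq2 and limma-voom called 2 each. Of the 3 tested, *Hoxb7* and *Wnt11* were fitted lower in mutant cells and *Calb1* higher, at 2.88 on the log2 scale. *Calb1* had 2 to 18 reads in control and 0 to 216 reads in mutant libraries. Endothelial and erythroid markers each summed to at most 6.63 CPM in any library, with the globin genes *Hbb-bt* and *Hba-a2* at 3 reads or fewer. The threshold was passed in edgeR by 1 gene, *Pecam1*, higher in mutant cells, as were 7.82% of all genes tested. Of the endothelial markers, DESeq2 called 2 and limma-voom 1. Less RNA per cell and fewer cells of a type cannot be told apart in these bulk libraries.

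**Figure D1:**
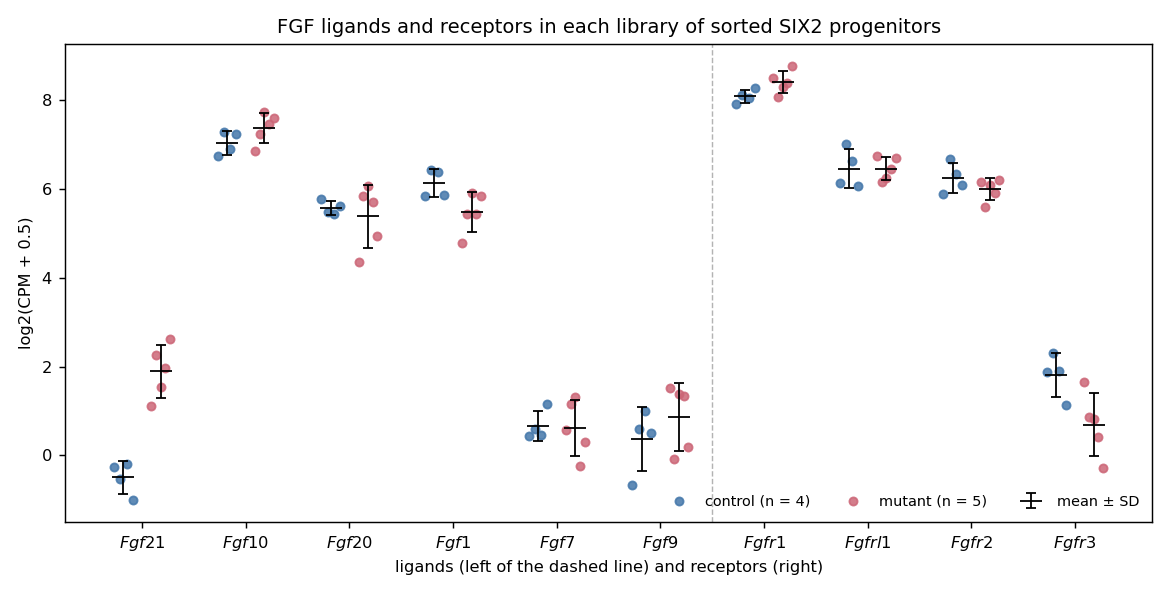
Level of each FGF ligand and receptor as log2(CPM + 0.5), with 1 point per library (4 control, 5 mutant) and bars for the mean and SD. The *Fgf21* points of mutant cells lie above all control points, and in every other gene the genotypes overlap.

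*Fgf21* (ENSMUSG00000030827, chromosome 7, 45613907 to 45615490, minus strand, GRCm38) was covered by 8, 5, 9 and 0 reads in control replicates 71, 72, 73 and 76, and by 39, 97, 47, 69 and 125 reads in mutant replicates 74, 75, 77, 78 and 79. In CPM these were 0.341, 0.195, 0.379 and 0 in control and 1.66, 4.29, 2.40, 3.39 and 5.67 in mutant libraries. The lowest mutant library lay above the highest control, with replicate 79 highest and replicate 74 lowest among the mutants. The means were 0.229 ± 0.172 CPM (SD, n = 4) and 3.48 ± 1.58 CPM (SD, n = 5), which gave a log2 fold change of 3.90 (standard error, SE, 0.62, edgeR adjusted p = 0.00237). The 2-sided exact permutation test over all 126 arrangements of the 9 libraries gave p = 0.0159. The gene reached the filter on low counts through its mutant libraries alone, and the count of 0 in control replicate 76 allows up to 3 reads, the floor used here, counting error only. Leaving out any 1 library kept the log2 fold change between 3.51 and 4.25 and the adjusted p-value at or below 0.00968 (edgeR). Without mutant replicate 75, the library with the most stromal marker RNA, it was 3.81. The part of other cell types in this rise was not tested.

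*Klb*, which encodes the coreceptor that FGF21 needs, had at most 1 read in any library, and *Kl*, which encodes klotho, the coreceptor of FGF23, had between 0 and 21 reads. Neither gene passed the filter on low counts. *Fgf21* transcripts thus rose in sorted cells whose *Klb* transcripts stayed under the floor of 3 reads in both genotypes.

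The 250 bases before the *Fgf21* start were read from the RefSeq promoter table (GRCm38.p6), since *Fgf21* was the member that changed and ATF4 binds known composite elements of this gene. The letters TGATGNAA, the core shared by such C/EBP-ATF elements, were searched on both strands. The minus-strand sequence of chr7:45615491-45615740, written 5′ to 3′ up to the base before the start, is shown with the match in capitals.
Fgf21 promoter: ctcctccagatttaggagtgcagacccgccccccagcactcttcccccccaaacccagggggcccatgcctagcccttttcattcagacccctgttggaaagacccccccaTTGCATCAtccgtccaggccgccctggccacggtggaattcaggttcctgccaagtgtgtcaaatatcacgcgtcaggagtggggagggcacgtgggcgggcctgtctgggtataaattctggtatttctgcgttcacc
There was 1 match, TTGCATCA, at bases −139 to −132 from the start, with the motif read on the opposite strand. Of 32851 promoter windows of this length in the table, 1134 (3.45%) held the letters. Windows were found for 7 of the 10 members, and *Fgf21* was the only 1 of these 7 with a match. A match describes letters and not binding.

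The 3 genes whose log2 CPM followed that of *Fgf21* most closely over the 9 libraries, after centring on the control mean, were *Cntn4*, *Klhl4* and *Bcat1*. They were chosen out of 13281 genes at a mean of 1 CPM or more, by the root mean square difference from *Fgf21*, which was 0.337, 0.345 and 0.402 on the log2 scale. *Bcat1*, the cytosolic transaminase of branched-chain amino acids, had a log2 fold change of 2.81. *Klhl4* had a log2 fold change of 3.12 and *Cntn4*, an adhesion molecule of neurons, of 3.56. Large rises in these genes follow from their choice by likeness to *Fgf21*. None of the promoter windows found for these 3 genes held the letters searched for.

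**Figure D2:**
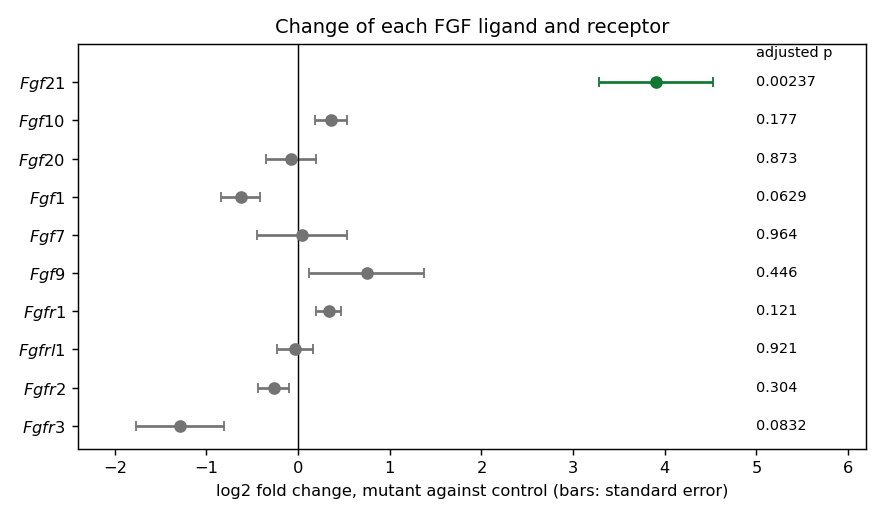
Log2 fold change of each gene, mutant against control, with its standard error and the edgeR adjusted p-value at the right. *Fgf21* stands at 3.90, and the other 9 genes lie between −1.29 and 0.75.

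Levels of different genes were compared as CPM per kilobase of gene length, with the lengths of the deposited table. In control cells the order of mean levels was *Fgfr1* (54.2), *Fgfrl1* (34.2), *Fgf10* (32.2), *Fgf20* (32.2), *Fgf1* (17.8), *Fgfr2* (17.3), *Fgfr3* (0.740), *Fgf7* (0.419), *Fgf9* (0.279) and *Fgf21* (0.246). *Fgfr1* was above *Fgfrl1* in 4 of 4 control libraries, although the ranges of the pair met at 47.7 and 48.4. *Fgfrl1*, *Fgf10* and *Fgf20* could not be ordered, nor could *Fgf1* and *Fgfr2*, which exchanged places between libraries. *Fgfr3* lay below *Fgfr2* without overlap, and among the 4 least abundant genes each overlapped the next in range. In mutant cells *Fgf21* stood at 3.75 ± 1.70 CPM per kilobase (SD, n = 5), above *Fgf9*, *Fgf7* and *Fgfr3* and below *Fgf1*, with ranges that did not meet in either direction.

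*Fgf10* (chromosome 13, 118669791 to 118792115), a ligand of the FGF7 subfamily that acts on the epithelial form of FGFR2, was with *Fgf20* the most abundant ligand per length. Control replicates 71, 72, 73 and 76 had 106, 154, 118 and 151 CPM, and mutant replicates 74, 75, 77, 78 and 79 had 116, 151, 211, 175 and 195 CPM. The genotypes overlapped, with 3 mutant libraries above all controls. The fitted difference was 0.36 on the log2 scale (SE 0.17, edgeR adjusted p = 0.177). Mutant replicate 74 was the lowest of its group, and leaving it out gave 0.47 with an edgeR adjusted p-value of 0.0379. Limma-voom also called *Fgf10* (0.46, adjusted p = 0.0245), and the antisense transcript *Gm16263* overlaps 123 bases of its exons. *Fgf7* (chromosome 2, 126034658 to 126091185), the related ligand made by stromal cells, was near the limit of detection, with 20 to 41 reads in control and 7 to 39 reads in mutant libraries, although the summed level of stromal markers did not overlap between genotypes. Its log2 fold change was 0.04 with a standard error of 0.49, so a change as large as that of *Foxd1* was not detectable at this depth.

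*Fgf20* (chromosome 8, 40279166 to 40308331), the ligand that cap mesenchyme itself makes to sustain its progenitors, had similar means and unequal spread. Control libraries had 54.3, 44.3, 42.7 and 48.7 CPM in replicates 71, 72, 73 and 76. Mutant libraries had 20.1, 56.5, 66.1, 51.7 and 30.4 CPM in replicates 74, 75, 77, 78 and 79. Replicates 74 and 79 thus lay below every control library and 75 and 77 above every control library. The means were 47.5 ± 5.21 CPM (SD, n = 4) and 44.96 ± 19.1 CPM (SD, n = 5), and the log2 fold change was −0.08 (SE 0.27, edgeR adjusted p = 0.873), which turned to 0.11 without mutant replicate 74 and to 0.03 without mutant replicate 79. With 1 surrogate variable it was −0.48 (edgeR adjusted p = 0.0975). *Fgf20* shares 202 bases of exon with *Micu3* on the opposite strand, and these libraries did not keep the strand. *Fgf9* (chromosome 14, 58070547 to 58112337), of the same subfamily, had 3 to 36 reads in control and 10 to 56 reads in mutant libraries. The difference of 0.75 on the log2 scale had an SE of 0.63 and an edgeR adjusted p-value of 0.446, and it was 0.39 without control replicate 71 and 1.12 without control replicate 73.

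*Fgf1* (chromosome 18, 38838673 to 38929404), a ligand without a signal peptide that binds all FGF receptors, was the third ligand by abundance in control cells. Control replicates 71, 72, 73 and 76 had 56.9, 85.7, 83.2 and 57.7 CPM, and mutant replicates 74, 75, 77, 78 and 79 had 27.0, 43.1, 59.9, 42.9 and 56.8 CPM. The mutant libraries lay at or below the lower pair of controls, except replicate 77. The log2 fold change was −0.63 (SE 0.21, edgeR adjusted p = 0.0629), and the exact permutation p was 0.0556 (2-sided). The call depended on the method and on 1 library: the adjusted p-value was 0.036 with DESeq2, 0.00932 with limma-voom and sample weights, and 0.0485 with edgeR without mutant replicate 77.

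Among the receptors, *Fgfr1* (chromosome 8, 25513654 to 25575714), the main FGF receptor of mesenchyme, had 241, 276, 266 and 309 CPM in control replicates 71, 72, 73 and 76. It had 363, 270, 315, 334 and 438 CPM in mutant replicates 74, 75, 77, 78 and 79. All mutant libraries but replicate 75 were above all controls. The log2 fold change was 0.33 (SE 0.14, edgeR adjusted p = 0.121; 2-sided exact permutation p = 0.0556), and it passed the threshold in a fit with 1 surrogate variable (0.40, adjusted p = 0.0271, edgeR). *Fgfr2* (chromosome 7, 130162451 to 133123350), which shares roles with *Fgfr1* in progenitors and is also the receptor of the ureteric bud, had 58.5 to 101 CPM in control and 47.8 to 72.7 CPM in mutant libraries, and the log2 fold change was −0.27 (SE 0.17, edgeR adjusted p = 0.304). Control replicate 72 was the highest library for *Fgfr2*, and without it the value was −0.104, near the −0.100 of the fit with 1 surrogate variable. The antisense transcript *Gm16159* overlaps 164 bases of *Fgfr1* exons. The annotated span of *Fgfr2* includes 314 bases of exon shared with *Ctbp2* on the same strand, where reads are ambiguous.

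*Fgfr3* (chromosome 5, 33721724 to 33737068), a receptor of FGF9 and FGF18, was expressed at a low level. It had 74, 115, 77 and 40 reads in control replicates 71, 72, 73 and 76 and 62, 30, 25, 17 and 7 reads in mutant replicates 74, 75, 77, 78 and 79. Control replicate 76 and mutant replicate 74 crossed, and the other mutant libraries were below all controls. Its log2 fold change was −1.29 (SE 0.48, edgeR adjusted p = 0.0832; 2-sided exact permutation p = 0.0397). Without mutant replicate 74 it was −1.74 with an adjusted p-value of 0.0165 (edgeR), and DESeq2 and limma-voom also called it. A transcript on the opposite strand, *G630022F23Rik*, overlaps 998 bases of *Fgfr3* exons. *Fgfrl1* (chromosome 5, 108694229 to 108706950), a receptor without a kinase domain that mice need for kidney formation, had 66.4 to 128 CPM in control and 70.8 to 107 CPM in mutant libraries and a log2 fold change of −0.04 (SE 0.19, edgeR adjusted p = 0.921).

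The composition of the receptors was compared as the share of each gene in the reads per length of *Fgfr1*, *Fgfr2*, *Fgfr3*, *Fgfr4* and *Fgfrl1*, which does not depend on library normalization. *Fgfr1* took 53.6%, 42.7%, 48.3% and 59.3% in control replicates 71, 72, 73 and 76, and 55.2%, 58.5%, 58.4%, 58.5% and 61.1% in mutant replicates 74, 75, 77, 78 and 79. The means were 51.0% ± 7.14 (SD, n = 4) and 58.3% ± 2.097 (SD, n = 5), a difference of 7.35 percentage points that did not pass the threshold (2-sided exact permutation test, p = 0.0635). Control replicate 76 was as high as the mutants, and without it the difference was 10.1 points (exact permutation p = 0.0179). Without control replicate 72, which had the lowest share, the difference was 4.57 points (exact permutation p = 0.143), and p was 0.0893 or higher when any other library was left out. Among the kinases alone, without *Fgfrl1*, the share of *Fgfr1* was 68.4% to 78.3% in control and 79.4% to 83.9% in mutant libraries, with no overlap (difference 7.61 points, 2-sided exact permutation p = 0.00794, the smallest that 4 against 5 libraries allow). The share of *Fgfr2* among all receptors was 14.7% to 17.8% in control and 11.5% to 14.4% in mutant libraries, a difference that is not independent because the shares sum to 100%.

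**Figure D3:**
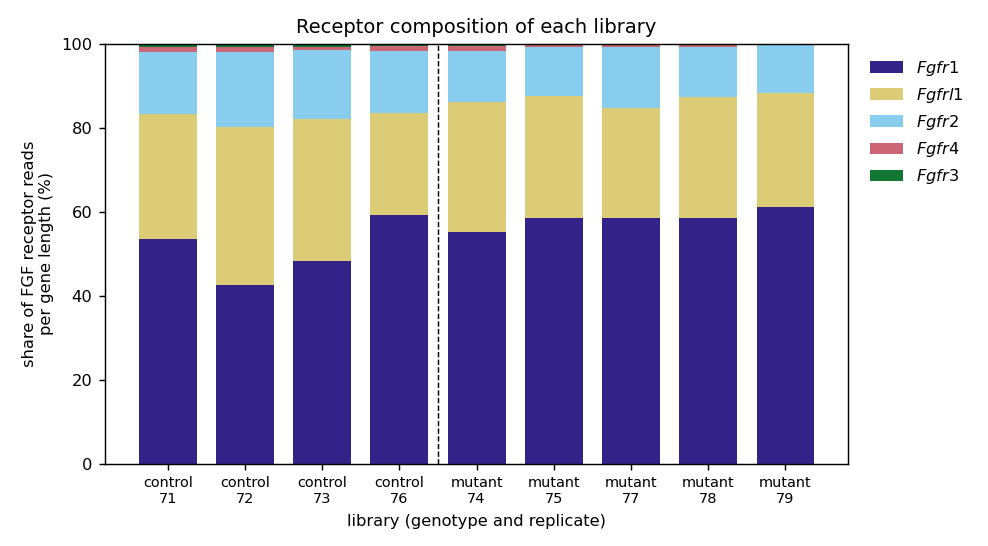
Share of each receptor in the FGF receptor reads per gene length (%), with 1 stacked bar per library. *Fgfr1* makes up 42.7% to 59.3% of the control bars and 55.2% to 61.1% of the mutant bars, and *Fgfr3* and *Fgfr4* together are a thin band at the top.

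Other genes of the pathway were read from the same fit. Of 69 genes listed, 56 passed the filter on low counts. The adjusted p-value was under 0.05 (edgeR) for 6 of them, 3 higher and 3 lower in mutant cells, or 10.7% against 14.8% of all genes tested, and their median log2 fold change was 0.02. Without control replicate 73 the number was 3 of 56, where 6.85% of all genes were called, and without mutant replicate 74 it was 10 of 56, where 21.2% were called.

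The 12 transcriptional targets and feedback inhibitors of FGF signalling were all tested, and 1 passed in edgeR, or 8.33% against 14.8% of all genes tested. Unadjusted p was under 0.05 for 3 of the 12, and DESeq2 and limma-voom called 3 each, where 19.0% and 32.5% of all genes were called. In the edgeR fit 9 of the 12 were higher in mutant cells. For 3 of the 12 the genotypes did not overlap, as for 15.2% of all genes tested. The gene past the edgeR threshold was *Dusp4*, which encodes a nuclear phosphatase of ERK. *Dusp4* had 13.0, 17.0, 14.5 and 13.0 CPM in control replicates 71, 72, 73 and 76 and 22.7, 21.1, 44.0, 42.6 and 28.0 CPM in mutant replicates 74, 75, 77, 78 and 79. No mutant library reached down to the controls, and the log2 fold change was 1.14 (SE 0.23, edgeR adjusted p = 0.00744). The most abundant of these genes per length, *Spry1*, an inhibitor of receptor signalling, stood at 164 ± 33.8 CPM (SD, n = 4) and 185 ± 53.6 CPM (SD, n = 5), or 0.17 on the log2 scale (SE 0.20). The median over the 12 genes was 0.16. Of the 12 adaptors and effectors at the receptor, 0 passed in edgeR, 2 had an unadjusted p under 0.05, DESeq2 called 0 and limma-voom 1. *Shc1*, the adaptor with the highest level per length in both genotypes, was at −0.10 on the log2 scale (SE 0.22).

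Heparan sulphate genes were 21 of the 56 tested and held 4 of the 6 past the threshold, or 19.0% against 14.8% of all genes tested. Of the 4, 1 was higher (4.76% against 7.82% of all genes tested) and 3 were lower (14.3% against 7.02%). Unadjusted p was under 0.05 for 10 of the 21. DESeq2 called 6 and limma-voom 7, where 19.0% and 32.5% of all genes were called. *Sulf1*, an extracellular enzyme that removes sulphate from heparan sulphate, had 31.5, 50.2, 49.0 and 35.4 CPM in control replicates 71, 72, 73 and 76 and 22.5, 16.9, 24.7, 18.2 and 23.6 CPM in mutant replicates 74, 75, 77, 78 and 79. The groups did not overlap, and *Sulf1* fell by 0.97 on the log2 scale (SE 0.18, edgeR adjusted p = 0.00449). *Sdc4*, the syndecan-4 core protein, fell from 79.9 ± 17.2 to 54.1 ± 10.7 CPM (SD, adjusted p = 0.0403, edgeR), and *Ext1*, a polymerase of the heparan sulphate chain, from 99.3 ± 10.8 to 74.6 ± 8.97 CPM (SD, adjusted p = 0.038, edgeR). *Gpc6*, a glypican, rose from 215 ± 16.6 to 303 ± 41.9 CPM (SD, adjusted p = 0.0177, edgeR). *Sulf1* kept its call in 16 of 16 alternatives, *Gpc6* in 14, *Sdc4* in 10 and *Ext1* in 8. Leaving out control replicate 71 or 73 ended the call of *Gpc6*, leaving out control replicate 71, 72 or 73 or mutant replicate 75, 77 or 78 that of *Sdc4*, and leaving out any 1 library except control replicate 71 and mutant replicate 74 that of *Ext1*. *Gpc3*, the most abundant gene of the group per length, was at 0.16 on the log2 scale (SE 0.12).

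*Fgf13*, which is not secreted and binds sodium channels inside the cell, rose from 3.31 ± 1.26 CPM (SD, n = 4) to 9.86 ± 1.32 CPM (SD, n = 5). Its libraries had 2.34, 2.18, 3.96 and 4.77 CPM in control and 9.72, 9.96, 11.8, 9.74 and 8.08 CPM in mutant cells, with no overlap, and the log2 fold change was 1.57 (SE 0.26, edgeR adjusted p = 0.00303). Among the other secreted ligands, 3 of 12 were tested and 0 passed in edgeR, while DESeq2 and limma-voom called 1 each, and 1 had an unadjusted p under 0.05, *Fgf8*, the ligand of the pretubular aggregate, which had a log2 fold change of −1.11 (SE 0.36, edgeR adjusted p = 0.054). *Fgf8* was called in 7 of 16 alternatives, among them DESeq2, limma-voom and the fits without mutant replicate 77 (−1.48, edgeR adjusted p = 0.0139) and without control replicate 76 (edgeR adjusted p = 0.0464). Without control replicate 73 it was −0.79. The markers of committed progenitors, of which *Fgf8* is itself 1 of 6, overlapped in sum between genotypes, at 308 to 555 CPM in control and 222 to 339 CPM in mutant libraries, and their part in the *Fgf8* value was not tested. *Fgfr4*, the remaining kinase receptor, had 3.73 ± 1.08 CPM (SD, n = 4) and 2.08 ± 1.84 CPM (SD, n = 5), or −0.84 on the log2 scale (SE 0.50). Mutant replicate 74 stood highest of its group, and *Fgfr4* was called in 1 of 16 alternatives, the fit without that library (−1.53, edgeR adjusted p = 0.0148). *Flrt3*, a membrane partner of FGF receptors and the most abundant of its group per length, was at 0.27 (SE 0.14) and was called by limma-voom alone among 16 alternatives. Among the 4 FLRT receptors and FGF binding proteins tested, 0 passed in edgeR, 1 had an unadjusted p under 0.05, DESeq2 called 0 and limma-voom 2. Over all genes, DESeq2 called 19.0% and limma-voom 32.5%.

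**Figure D4:**
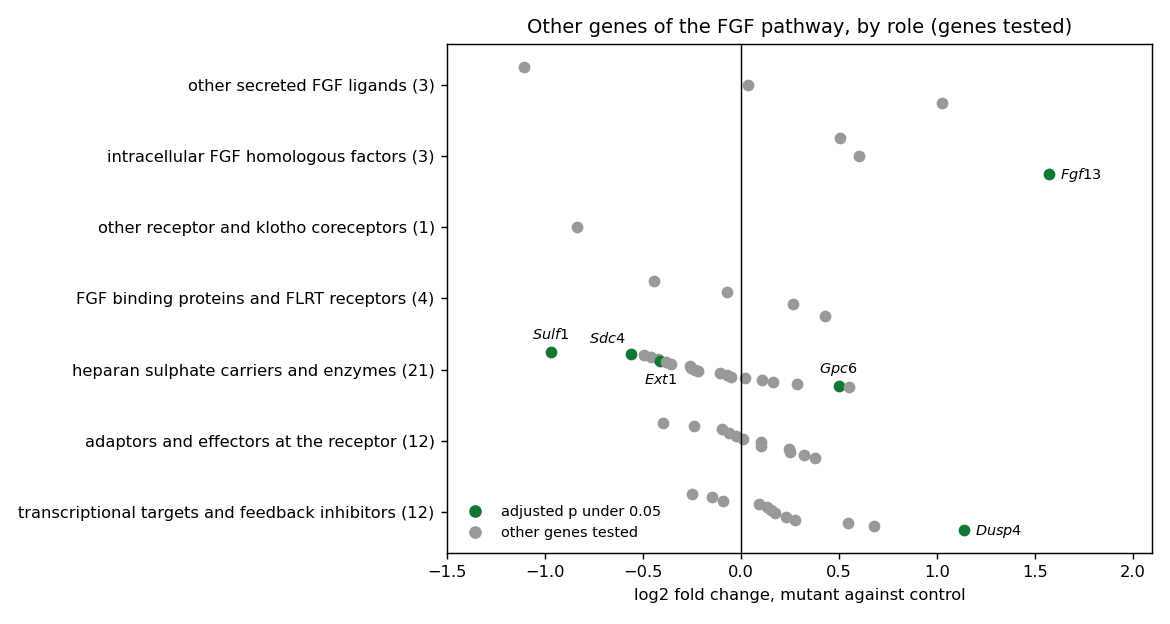
Log2 fold change of the 56 tested genes of the FGF pathway outside the 10 ligands and receptors, by role, with the 6 genes under an adjusted p of 0.05 named. *Fgf13*, *Dusp4* and *Gpc6* lie to the right of 0 and *Sulf1*, *Sdc4* and *Ext1* to the left.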

How the data were processed

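RNA from sorted cells was amplified with a low-input kit, selected for poly(A) and sequenced without strand information, 1 library per sample. The authors deposited read counts per gene. Per the labels, their processing notes name STAR, DESeq2 and build mm10, and tool versions and the counting tool are not given in the sources used here. The deposited table also holds the authors' FPKM values, mean signals, fold changes and p-values, none of which were used. Counts of 26858 genes were fitted with edgeR 4.0.16 in R 4.3.3: filterByExpr on genotype, TMM factors and the robust quasi-likelihood test, with a Benjamini-Hochberg adjusted p under 0.05 over 14990 genes as the threshold. The test was checked on simulated counts. Standard errors were derived from each fold change and its F statistic. Exact permutation tests were unadjusted and covered all 126 arrangements. Alternatives used DESeq2 1.42.0, limma 3.58.1, sva 3.50.0, other normalizations, other filters and each library left out in turn. Groups and replicate numbers came from sample titles, and the 2 genotypes share no replicate number. Gene models were compared with GENCODE M21 (GRCm38), where the identifiers of all 10 genes matched their symbols. Figures were drawn with Python 3.11.15 and matplotlib 3.10.9. Named pathway genes are those past the threshold, at most 3 per direction and role, and the most abundant gene of each role. *Klb*, *Kl*, *Pecam1*, the globin genes and the ligands in the closing section were picked with their values in view. The members and lists were chosen with earlier results of these data known.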

Additional observations from a re-analysis of the deposited data

Results flagged for a closer look

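In 2 of 46 groups of libraries examined, the extreme library exceeded a distance from the others that chance passes in about 5% of groups, or 2.3 of 46. Mutant replicate 77 was high for *Fgf8*, at 4.54 CPM, where the next mutant library had 2.05 CPM. Mutant replicate 74 was high for *Fgfr4*, at 5.24 CPM, where the next had 1.89 CPM. No group of libraries of the 10 ligands and receptors passed the limit.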

How the results depend on the processing

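*Fgf21* was called in all 15 alternatives that could test it, with log2 fold changes from 3.51 to 4.25. Requiring at least 10 counts in every library removed *Fgf21*, *Fgf7*, *Fgf9* and *Fgfr3*, so that 0 of 6 ligands and receptors passed in edgeR, with 2 at an unadjusted p under 0.05. The number of the 10 genes past the threshold was 3 with DESeq2, 4 with limma-voom, 2 with 1 surrogate variable (where 19.0%, 32.5% and 20.8% of all genes were called, against 14.8%) and between 1 and 3 when 1 library was left out (3 without mutant replicate 74, 2 without mutant replicate 77). For the other pathway genes the number was 11 of 58 tested with DESeq2, 15 of 56 with limma-voom, 10 of 56 with 1 surrogate variable and between 3 and 10 when 1 library was left out, while 6.85% to 21.2% of all genes were called. The cause of these shifts was not tested. The *Fgfr1* share differed by 7.61 points without *Fgfrl1* and by 7.36 points in raw counts (exact permutation p = 0.0238), and by 4.57 points (without control replicate 72) to 10.1 points (without control replicate 76) when 1 library was left out. Genes near 0 changed sign: *Fgf7* was −0.15 (limma-voom), −0.19 (1 surrogate variable) and ranged from −0.24 to 0.34 when 1 library was left out, *Fgf20* was 0.052 (limma-voom), −0.48 (1 surrogate variable) and ranged from −0.26 to 0.11, and *Fgfrl1* was 0.20 with 1 surrogate variable and ranged from −0.15 to 0.18. Few reads limit *Fgf7*, *Fgf9* and *Fgfr3*. No paired analysis was possible because the genotypes share no replicate number.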

Other observations

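Of the 12 secreted ligands outside the 10 genes, 9 did not pass the filter on low counts. *Fgf2*, *Fgf4*, *Fgf6*, *Fgf16* and *Fgf23* had at most 4 reads in any library, and *Fgf3*, *Fgf5*, *Fgf17* and *Fgf22* at most 15. *Fgf17*, which belongs to the subfamily of *Fgf8*, had 2, 5, 1 and 10 reads in control replicates 71, 72, 73 and 76. It had at most 1 read in a mutant library. *Fgf22* had 0, 5, 5 and 0 reads in the same controls and 0 in the mutant libraries. *Fgf15* was tested and varied widely, from 0 to 29 reads in control and from 5 to 55 reads in mutant libraries. *Fgfbp1*, which encodes a carrier that releases FGFs from the matrix, had 1, 8, 71 and 2 reads in control replicates 71, 72, 73 and 76. Mutant replicates 74, 75, 77, 78 and 79 had 14, 0, 19, 1 and 1 reads, and the gene did not pass the filter.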
